A study of Ovis aries with 18 samples.

Results

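KIAA1210, PRND and CST9L, 3 of the 29589 gene IDs in the count files, were followed lamb by lamb in the testis of 18 male Santa Ines lambs. The 3 genes were chosen because they were lower in lambs of the gossypol-rich diet in these same lambs, so their difference between diets is described here, and calls from the fit over all IDs are given for them only as background and not as evidence of that difference. They are carried by the IDs ENSOARG00000016447 (KIAA1210), ENSOARG00000004683 (PRND) and ENSOARG00000006146 (CST9L). All 3 passed the filter on low counts, as did 18640 IDs in all, and none shares its counts with another ID. The count files pair no ID with a symbol, and the symbols used here come from the choice of these genes and from the labelled genes of the study. The qRT-PCR measurements of the study were not analysed here. Whether counting used strand is not given in the sources used here, so reads of an overlapping gene on the other strand cannot be told apart.

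The diets of the ewes differed in their supplement. In the control diet it was based on corn and soybean, and in the gossypol diet on cottonseed, which is rich in gossypol. Feeding began at conception and ended 60 days after birth. Gossypol is a pigment of the cotton plant that has been studied as a male contraceptive. The lambs, 9 per maternal diet, were aged 60 days when the testicles were removed, and 1 library of poly-A RNA was sequenced per lamb from the left testicle. All lambs also had hay, mineral salt and a corn and soybean concentrate, and those of the cottonseed diet were exposed through the ewe. Libraries held between 14468612 and 22334428 counts in control lambs and between 15240624 and 20660132 in gossypol lambs.

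KIAA1210 is an X-linked gene expressed mainly in the testis, and its protein is found in the acrosome, the cap of the sperm head that opens at fertilization. Doppel, the product of PRND, is a relative of the prion protein held at the cell surface by a lipid anchor, and male mice without it are sterile. CST9L belongs to the cystatins, which inhibit cysteine proteases, and its relatives are known from the supporting Sertoli cells of the developing testis. Spermatogenesis runs from spermatogonia through meiosis to spermatids, beside Sertoli cells that support every step. In the sheep RefSeq gene order of assembly ARS-UI_Ramb_v3.0, KIAA1210 lies between PGRMC1 and CT47C1. PRND lies between PRNP, the prion protein gene, and PRNT. The symbol CST9L was not found in that gene order. A bulk library cannot tell fewer cells of a type from less RNA per cell.

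Before the genes were examined, the libraries were laid out by a principal component analysis of log2 CPM over all other tested IDs. CPM is the count scaled to the size of its library, after TMM normalization. On the first component, control lambs H06, H20, H22, H29 and H37 scored between 53.0 and 88.8. The other 4 control lambs scored between -33.6 and -11.6, among the gossypol lambs, which ran from -78.6 to 28.8. On the second component gossypol lambs H41 and H01 stood apart with 82.9 and 53.2, while no other lamb was above 18.4. The fold changes, the counts of called IDs and the gossypol correlations between the 3 genes are also given without these lambs. Cell-type markers could not be checked, because the files carry IDs without symbols and none of them matched the table of gene names.

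KIAA1210 ran over a 50.3-fold range within the control diet. The control lambs had 243 CPM in H22, 242 in H29, 140 in H20, 91.5 in H06, 34.2 in H37, 9.30 in H31, 8.63 in H39, 6.20 in H32 and 4.83 in H44. The gossypol lambs had 19.3 CPM in H12, 13.5 in H48, 5.74 in H10, 4.41 in H01, 3.75 in H47, 3.37 in H08, 3.02 in H41, 2.81 in H35 and 2.21 in H25. Thus H22, H29, H20, H06 and H37 exceeded all gossypol lambs, while H31, H39, H32 and H44 fell inside the range of that diet. The widest step in the control diet, 3.67-fold, was between H31 and H37. The medians were 34.2 CPM (control) and 3.75 CPM (gossypol), a 9.10-fold difference. In the fit over all IDs, the log2 fold change of gossypol against control was -3.74 (standard error 0.77, n = 9 per diet), against -2.79 in limma-voom.

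PRND was the weakest of the 3 in counts, with 15 to 901 per lamb. Its control lambs had 57.5 CPM in H20, 36.9 in H06, 36.6 in H22, 23.5 in H29, 10.0 in H37, 5.27 in H31, 4.17 in H39, 2.84 in H32 and 2.37 in H44. Its gossypol lambs had 9.35 CPM in H48, 4.78 in H12, 3.89 in H41, 3.77 in H10, 2.98 in H08, 2.81 in H01, 1.45 in H47, 1.19 in H35 and 0.81 in H25. The same 5 control lambs were above all gossypol lambs, but H37 exceeded gossypol lamb H48 only narrowly. The widest step in the control diet, 2.34-fold, lay between H37 and H29, so that H37 was nearer to the low lambs here than in the other genes. The 95% Poisson intervals of these counts overlapped, at 8.69 to 11.5 CPM in H37 and 8.06 to 10.8 CPM in H48, and cover counting error alone. The medians were 10.0 and 2.98 CPM, a 3.37-fold difference, and the log2 fold change was -2.53 (standard error 0.60, n = 9 per diet).

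Among the 3 genes, CST9L had the widest range in the control diet, 116-fold. Control lambs had 447 CPM in H22, 232 in H29, 160 in H20, 126 in H06, 96.1 in H37, 14.5 in H31, 11.0 in H32, 8.83 in H39 and 3.84 in H44. Gossypol lambs had 42.5 CPM in H01, 32.2 in H48, 8.54 in H47, 6.96 in H41, 6.52 in H08, 5.85 in H12, 5.23 in H10, 3.56 in H35 and 3.40 in H25. Again the control lambs above the gossypol range were H06, H20, H22, H29 and H37, with a 6.64-fold step between H31 and H37. In the gossypol diet, H01 and H48 stood above the other 7 lambs by a 3.77-fold step. The medians were 96.1 and 6.52 CPM, a 14.7-fold difference, and the log2 fold change was -3.26 (standard error 0.80, n = 9 per diet), against -2.48 in limma-voom.

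**Figure D1:**
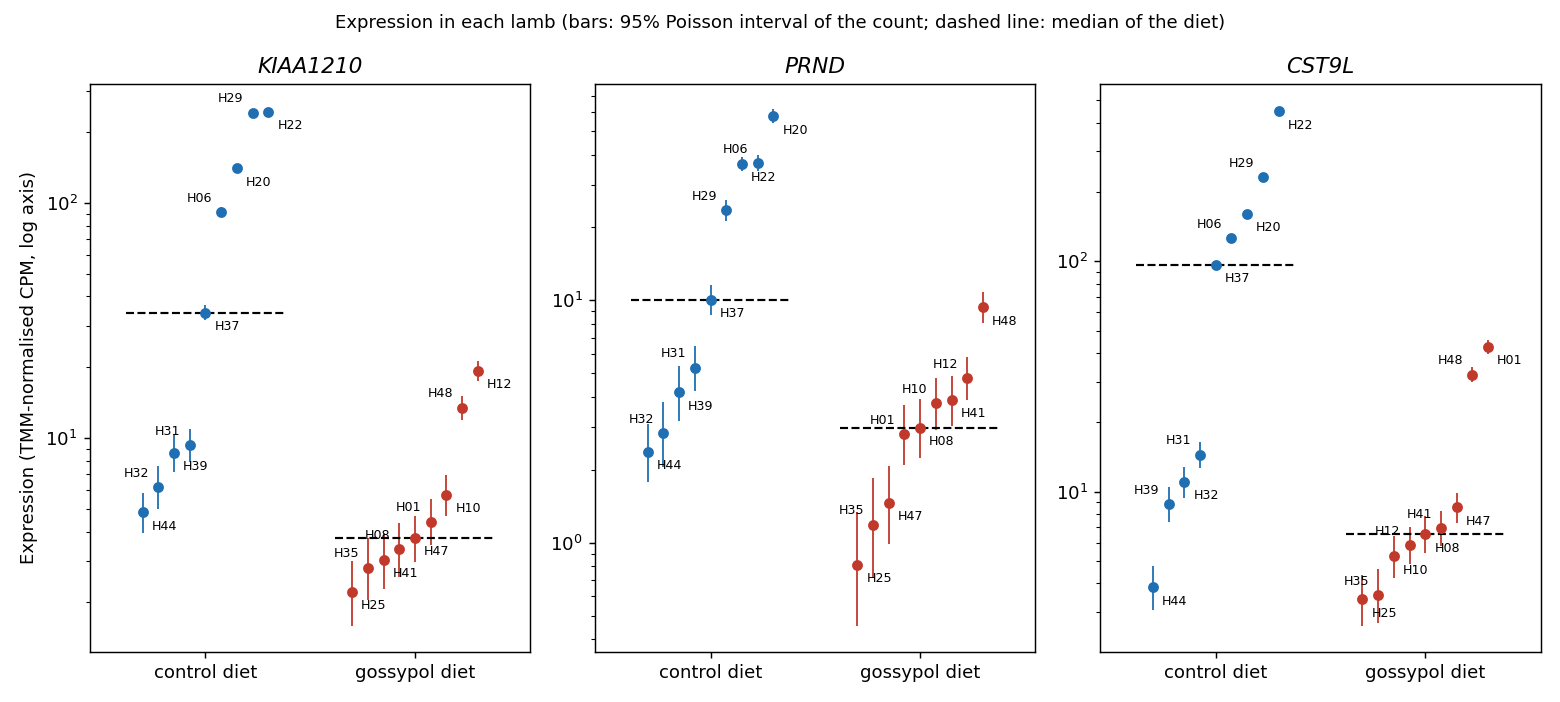
Expression of KIAA1210, PRND and CST9L in TMM-normalised CPM on a log axis, with 1 point per lamb, lambs ordered by value within each diet, 95% Poisson intervals of the counts as bars and the median of each diet as a dashed line. In each gene 5 control lambs lie above all 9 gossypol lambs, and the other 4 control lambs lie among them.

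This pattern was shared with many other IDs. At least 5 control lambs lay above every gossypol lamb in 1186 of the 18640 tested IDs (6.36%). In 700 IDs (3.76%), the 3 genes included, exactly H06, H20, H22, H29 and H37 did so. At an FDR of 10% in edgeR's quasi-likelihood test, all 3 genes were among the 237 IDs called lower in gossypol lambs (1.27% of those tested), which follows from their choice. In either direction 332 IDs (1.78%) were called. At an FDR of 1%, 0 IDs (0%) were called by that test, while 4327 (23.2%) had an unadjusted p under 0.05, 2130 of them (11.4%) lower in gossypol lambs. The 1% count was 82 in edgeR's exact test, 90 in its likelihood ratio test, 123 in DESeq2 and 0 in limma-voom. All 3 genes were among those called lower in the exact test (62, 0.333%), the likelihood ratio test (67, 0.359%) and DESeq2 (94, 0.504%). That too follows from their choice. At 10%, limma-voom also called 0 IDs (4360 at an unadjusted p under 0.05). Leaving out any one of control lambs H06, H20, H22, H29 and H37 or of gossypol lambs H08, H10, H25, H35, H41 and H47 also left 0 IDs at 10% in the quasi-likelihood test, with 3095 to 3931 at an unadjusted p under 0.05.

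The spread between lambs was large for the level of expression. The SD of log2 CPM over the 9 control lambs was 2.32 in KIAA1210, 1.74 in PRND and 2.44 in CST9L, against a median of 0.40 over all tested IDs. Each gene was set beside the IDs whose mean log2 CPM lay within 0.5 of its own. The SD in control lambs was above that of 99.9% of 2477 such IDs for KIAA1210, of 99.3% of 1852 for PRND and of 100% of 2817 for CST9L. In gossypol lambs the SDs were 1.04, 1.05 and 1.28 for KIAA1210, PRND and CST9L, against a median of 0.43 over all IDs. They were above those of 97.7%, 96.4% and 99.5% of the IDs of like expression. The spread in control lambs comes from the same 5 high lambs that carry the contrast on which the genes were chosen, so the SDs are a description and their difference between diets was not tested. The labelled genes of the study were placed by this measure in control lambs too. In the 9 that were lower in gossypol lambs, the SD was above that of 94.1% (CYP4F21) to 99.9% (ADAM11) of IDs of like expression. This share was 99.6% in MAGEB18. In the 7 that were higher, it ran from 15.4% in OC90 and 40.6% in GFRA3 to 96.3% in SMOC2. A large spread in control lambs was thus shared with the lower labelled genes and not particular to the 3 genes. OC90 had 3 to 12 counts in control lambs, and its symbol is paired with its ID less surely.

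The question of covariation is whether a lamb that is high in one of the genes is also high in the others. In control lambs KIAA1210 and CST9L rose and fell together, with Pearson's r = 0.97 and Spearman's rho = 0.98 on log2 CPM over 9 lambs. The genes were chosen on a diet contrast that the same 5 high control lambs carry, and these lambs also stood apart on the first component, so every r between the 3 genes is a description and no p is given. Without the 2 lambs farthest from the median of KIAA1210, H22 and H29, r was 0.96. This and the other omissions in control lambs keep both high and low lambs. They cannot separate r from the split between high and low lambs. H22, H29, H20, H06 and H37 held the first 5 places in this order in both genes. In the lower 4 lambs, H39 and H32 changed places.

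PRND followed the others in control lambs less closely in rank. With KIAA1210 it had r = 0.95 and rho = 0.87 over 9 lambs, and r = 0.99 without H22 and H29. On linear CPM r of this pair was 0.69 in control and 0.69 in gossypol lambs. With CST9L it had r = 0.92 and rho = 0.85 over 9 lambs, and r = 0.93 without H20 and H44. PRND was highest in H20, while KIAA1210 and CST9L were highest in H22. In H29, KIAA1210 was close to that of H22 and PRND was lower than in H20, H06 and H22. In each of the 3 genes H06, H20, H22, H29 and H37 were the highest 5 control lambs, and with 5 and 4 lambs neither set is large enough for an r of its own.

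In gossypol lambs KIAA1210 and PRND had r = 0.77 and rho = 0.77 over 9 lambs. H12 and H48 were the highest lambs in both genes. Without H12 r was 0.84, without H48 it was 0.67 and without both it was 0.68. Without H01 and H41, which stood apart on the second component, it was 0.86.

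CST9L followed the other genes less closely in the gossypol diet. Its r was 0.37 with KIAA1210 and 0.56 with PRND, with rho of 0.47 and 0.43. CST9L fell into separate sets of lambs there, H01 and H48 above the other 7. Over the other 7 lambs r was 0.26 with KIAA1210 and 0.54 with PRND. Lamb H01 was highest in CST9L with 42.5 CPM but had 4.41 CPM of KIAA1210, close to its diet's median. Lamb H12 was the reverse, the highest in KIAA1210 with 19.3 CPM and below the median in CST9L with 5.85 CPM. H48 was among the highest 2 gossypol lambs in all 3 genes. Without H12, r of KIAA1210 and CST9L was 0.68, and without H48 it was 0.12. Without H01 and H41 it was 0.58, and r of PRND and CST9L was 0.76. The latter was 0.32 without H48 and 0.11 without H25 and H48, the lambs farthest from the median of PRND. On linear CPM, r of CST9L over all 9 gossypol lambs was 0.17 with KIAA1210 and 0.47 with PRND. The difference in r between diets was not tested.

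**Figure D2:**
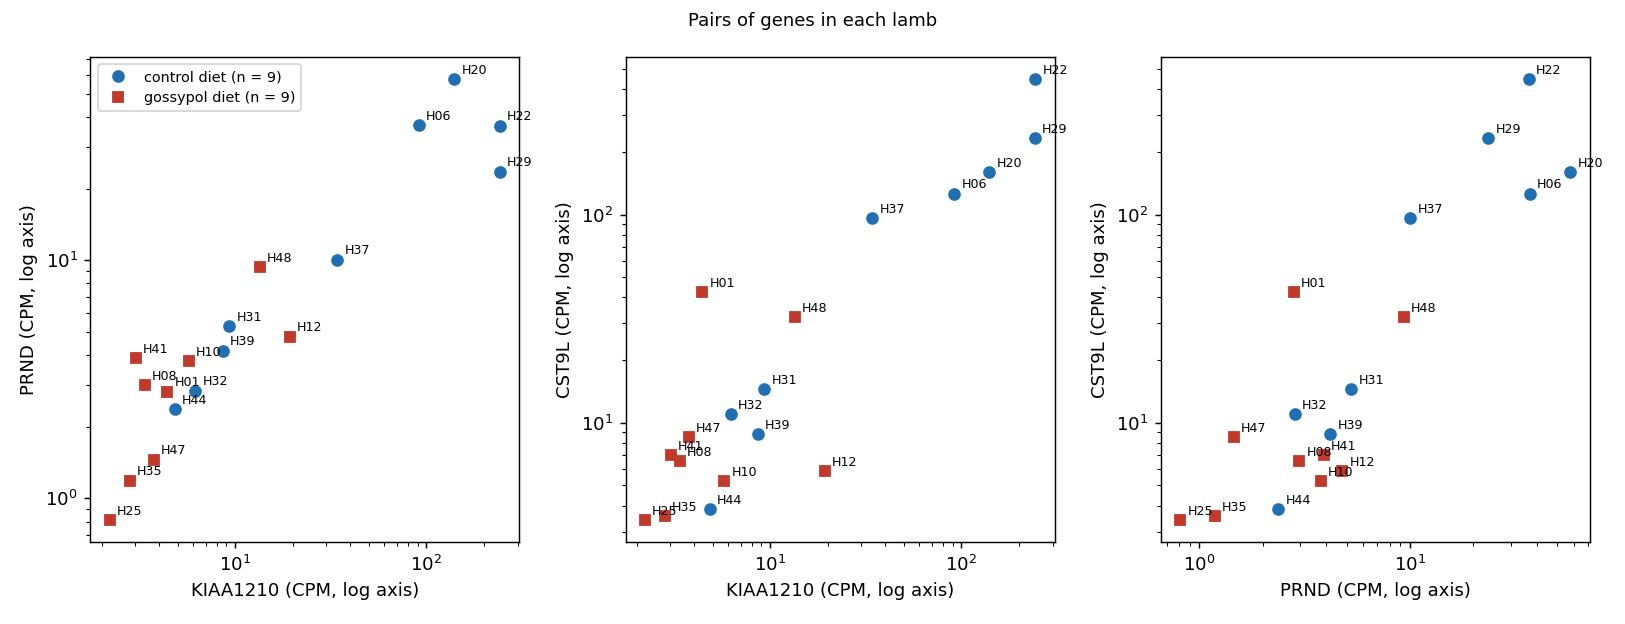
Each pair of genes in CPM on log axes, with 1 labelled point per lamb, control lambs as blue circles and gossypol lambs as red squares. Control lambs lie along a diagonal in all 3 panels (r between 0.92 and 0.97), while H01 and H12 lie off it on opposite sides in the panel of KIAA1210 and CST9L.

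The balance of the genes within a lamb needs no scaling between libraries. CST9L held between 44.3% and 73.8% of the summed counts of CST9L and KIAA1210 in control lambs, with a median of 57.9%. The lowest was H44 and the highest was H37. In the gossypol diet H01 had 90.6% (772 of CST9L and 80 of KIAA1210, exact binomial 95% interval 88.5% to 92.5%). H12 had 23.3% (120 and 396 counts, 19.7% to 27.1%). The values of these lambs lay outside the control range on opposite sides, and the other 7 gossypol lambs lay between 47.7% and 70.5%, inside it. The intervals cover counting error alone and not the spread between lambs. Since transcript lengths enter these percentages, they compare lambs and not genes.

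PRND held between 8.87% and 36.2% of the summed counts of PRND and KIAA1210 in control lambs. The lowest were H29, with 8.87% (exact binomial 95% interval 8.06% to 9.73%), and H22, with 13.1% (12.3% to 14.0%), which had the highest KIAA1210. In gossypol lambs it ran from 19.8% in H12 to 56.3% in H41, with a median of 38.9% against 29.1% in control lambs. H41 held 72 counts of PRND and 56 of KIAA1210. H12 had the lowest percentage of its diet for both partners of KIAA1210. Both percentages share its 396 counts of KIAA1210, the highest of its diet, and are not independent.

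**Figure D3:**
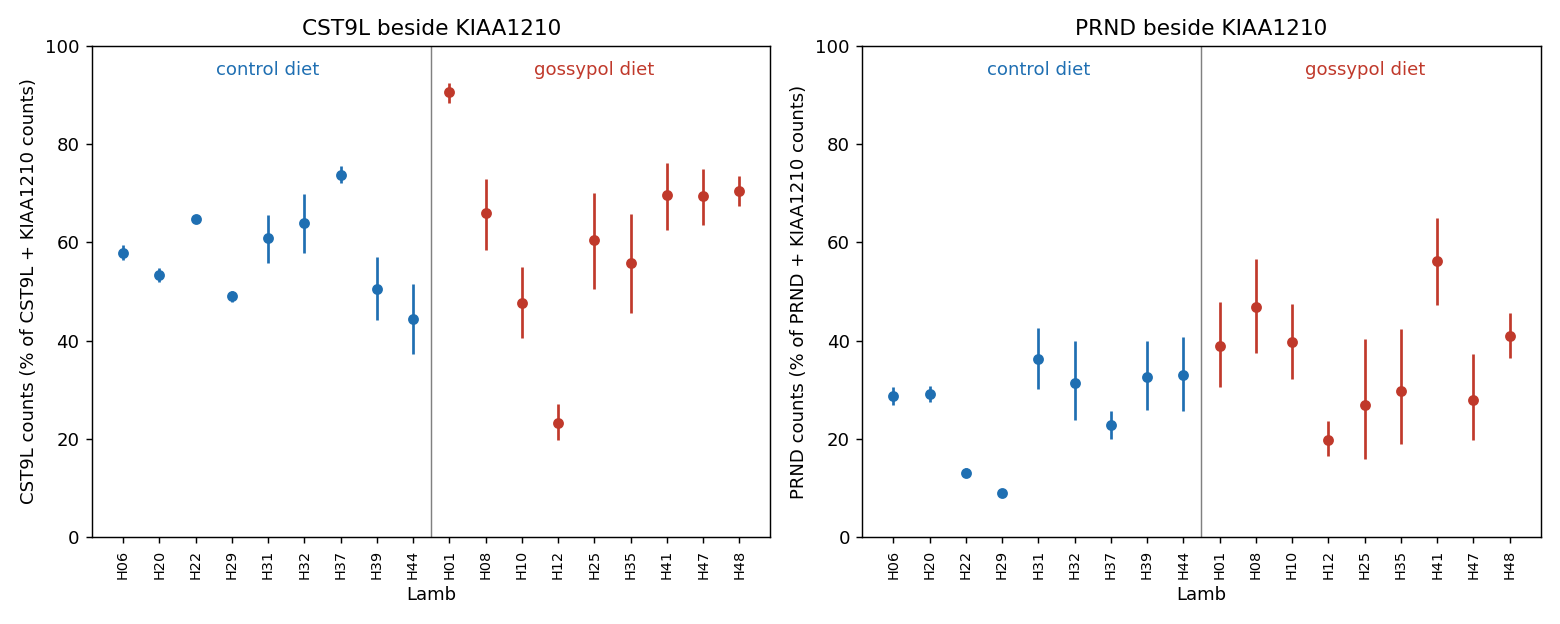
Counts of CST9L (left) and of PRND (right) as a percent of the counts of that gene and KIAA1210 in each lamb, with exact binomial 95% intervals as bars, control lambs in blue and gossypol lambs in red. On the left H01 at 90.6% and H12 at 23.3% lie outside the control range of 44.3% to 73.8%, and on the right H29 and H22 are the lowest lambs.

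The covariation in control lambs was set beside that of all IDs. KIAA1210 had an r over 0.9 with 854 of the other 18639 tested IDs (4.58%) in control lambs and with 69 (0.37%) in gossypol lambs. For PRND these were 371 (1.99%) and 55 (0.295%), and for CST9L 868 (4.66%) and 35 (0.188%). An r under -0.9 in control lambs was found with 759 IDs (4.07%) for KIAA1210, 443 (2.38%) for PRND and 764 (4.1%) for CST9L. In gossypol lambs these were 64 (0.343%), 40 (0.215%) and 25 (0.134%). In control lambs 286 IDs (1.53%) had an r over 0.9 with all 3 genes and 255 (1.37%) an r under -0.9. In gossypol lambs 0 IDs had either. By r with KIAA1210 in control lambs, CST9L came after 56 other IDs and PRND after 263. In gossypol lambs PRND came after 603 and CST9L after 4817 IDs. The covariation of the 3 genes in control lambs was thus shared with many IDs.

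**Figure D4:**
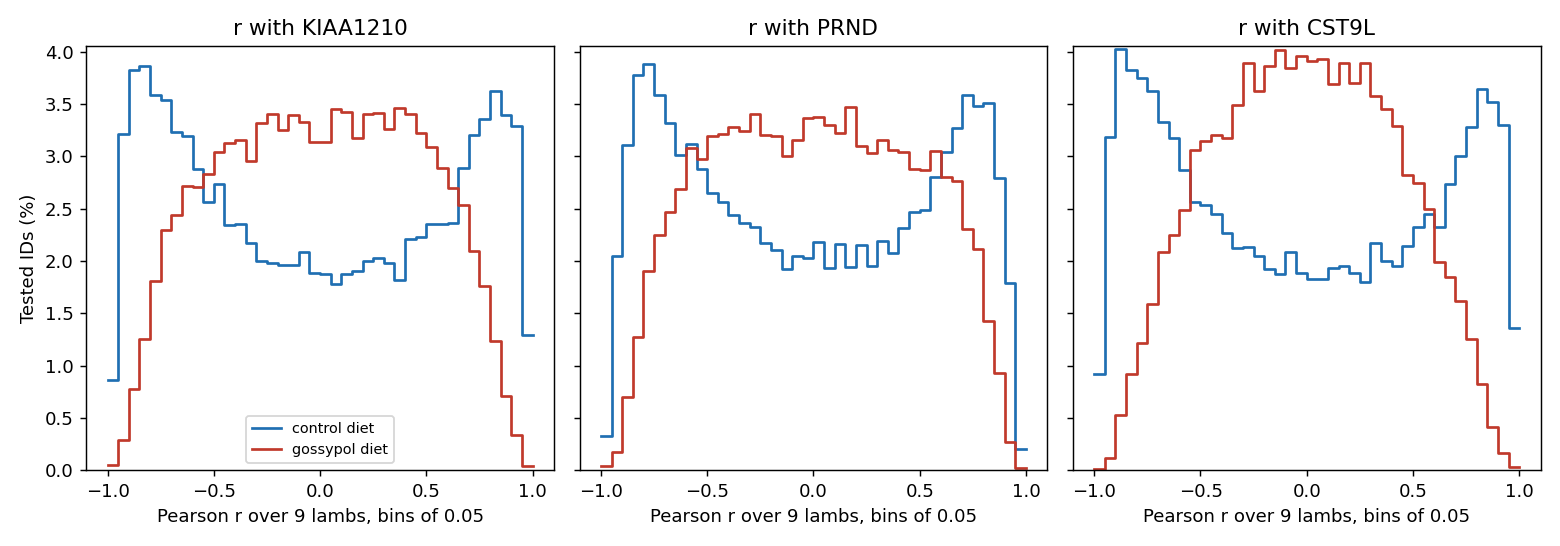
Distribution of Pearson's r between each gene and all other tested IDs, in percent of IDs per bin of 0.05, over the 9 lambs of each diet. In control lambs (blue) the IDs crowd at strong positive and negative r, with a median absolute r of 0.59 for KIAA1210, 0.56 for PRND and 0.59 for CST9L, and in gossypol lambs (red) fewer do so, with 0.38, 0.39 and 0.33.

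Likeness was also measured over all 18 lambs, as Pearson's r of log2 CPM after each diet was centred on its own mean. The ID most like KIAA1210 was ENSOARG00000005228, with r = 0.98, and the ID most like CST9L was ENSOARG00000005049, with r = 0.97. The ID most like PRND had r = 0.95. None of the 3 closest IDs of any gene has a symbol in the sources used here. By this measure KIAA1210 was the 13th closest ID to PRND (r = 0.90), PRND was in place 101 from KIAA1210, and CST9L was in place 322 from KIAA1210 (r = 0.86). The 3 genes had a larger SD in control lambs (2.32 against 1.04 in KIAA1210), so control lambs weigh more in this r. Within the diets, r of KIAA1210 and CST9L was 0.97 in control and 0.37 in gossypol lambs. The genes were chosen on these same lambs, so this r too is a description.

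A plot of the study labels 16 further genes among those that differed between diets, 9 of them lower and 7 higher in gossypol lambs. These labelled genes were chosen on the same contrast, so their relations to the 3 genes are a description. The counts of CYP4F21 are the same as those of 3 other IDs and cannot be given to it alone. In control lambs all 9 lower genes had a positive r with each of the 3 genes. The r with KIAA1210 was highest for SLC4A5, a sodium bicarbonate cotransporter, at 0.99, followed by MAGEB18, of the MAGE family of testis antigens, at 0.97, and it was lowest for VSIG1, a junctional adhesion protein, at 0.83. CST9L was closest to ADAM11, of the disintegrin and metalloprotease family (r = 0.98). PRND was closest to MAGEB18 (r = 0.96).

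In gossypol lambs the 9 lower labelled genes divided, though 7 had a positive r with KIAA1210, 8 with PRND and 8 with CST9L. LRRC8B, a subunit of volume-regulated anion channels, held an r of 0.84 with KIAA1210, 0.79 with PRND and 0.74 with CST9L. MAGEB18 and FATE1, both testis antigens, had an r of 0.87 and 0.84 with CST9L, beside 0.67 and 0.52 with KIAA1210. H01 and H48, the high lambs in CST9L, were also the highest in both antigens. Over the other 7 lambs the r with CST9L was 0.45 for MAGEB18, 0.23 for FATE1 and 0.47 for LRRC8B. SLC4A5 showed the opposite, with 0.74 for KIAA1210 and 0.05 for CST9L. VSIG1 and MAGEA10, with r of 0.83 and 0.96 with KIAA1210 in control lambs, had -0.33 and -0.36 with it in gossypol lambs. Their own SD of log2 CPM in gossypol lambs was 0.46 in each, against 2.54 and 2.62 in control lambs. SLC4A5 likewise had an SD of 0.35 in gossypol and 2.81 in control lambs. Counts in gossypol lambs were 14 to 41 in VSIG1, 38 to 112 in MAGEA10 and 20 to 50 in SLC4A5. Counting noise thus enters the r of these genes there, and its size and sign are not read. None of these differences in r was tested.

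The 7 labelled genes that were higher in gossypol lambs had a negative r with each of the 3 genes in control lambs. In gossypol lambs all 7 had a negative r with KIAA1210, and SMOC2 alone was positive with PRND (0.10) and with CST9L (0.005). CACNG4, an auxiliary subunit of calcium channels, had -0.84 in control and -0.92 in gossypol lambs against KIAA1210. Against PRND it had -0.86 and -0.82. SLC47A1, a transporter that exports organic cations and drugs, had -0.75 and -0.81 against KIAA1210, but -0.81 and -0.06 against CST9L. OC90, whose symbol is paired with its ID less surely, had 3 to 12 counts in control lambs and SMOC2 went down to 4, so counting noise enters their r there and its size is not read.

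**Figure D5:**
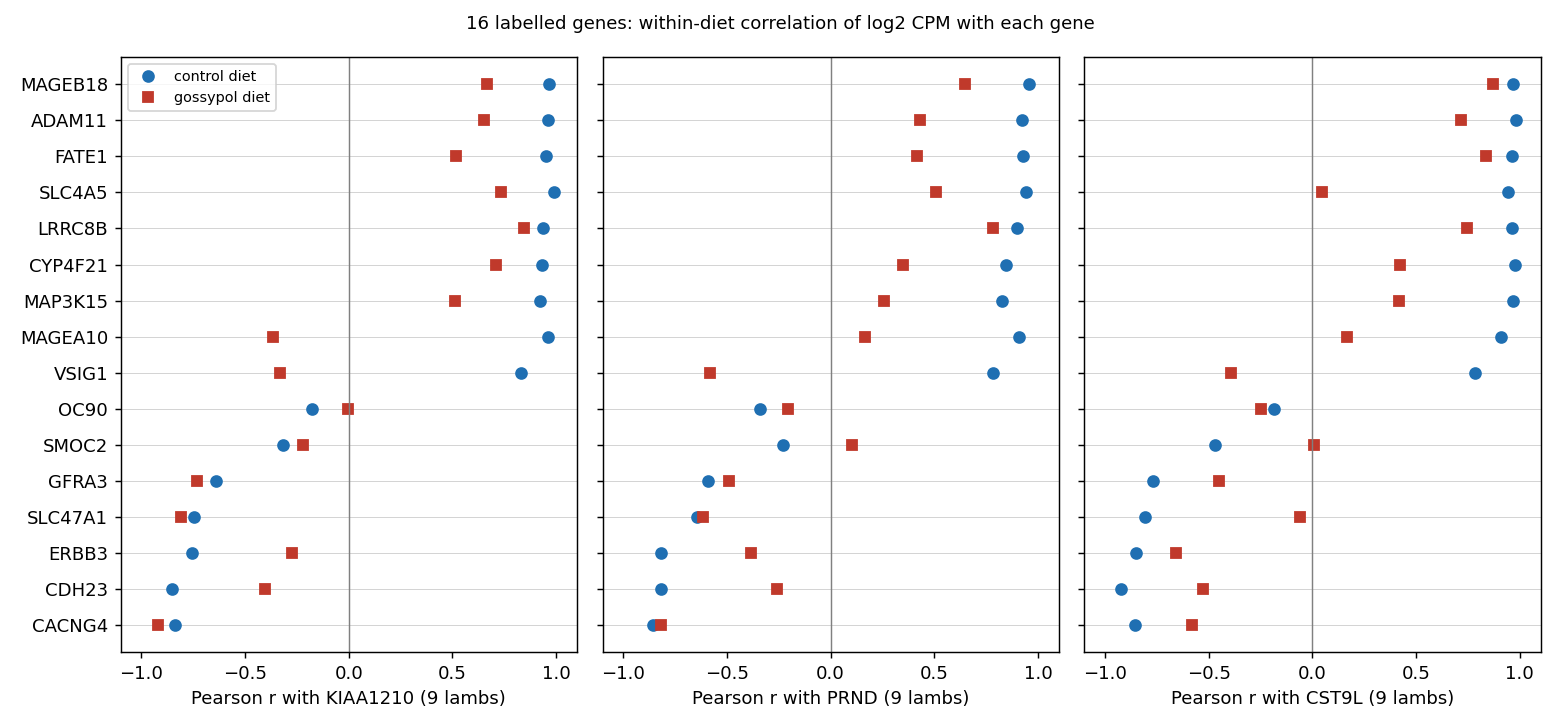
Pearson's r of log2 CPM between 16 labelled genes (rows) and KIAA1210, PRND and CST9L (panels), over 9 control lambs (blue circles) and 9 gossypol lambs (red squares). The 9 genes in the upper rows have r from 0.78 to 0.99 in control lambs. In gossypol lambs LRRC8B lies between 0.74 and 0.84 over all 9 lambs. VSIG1 falls below 0 there in all 3 panels, on 14 to 41 counts per lamb.

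Measures of the libraries were set beside the genes within each diet. Over 12 relations of the 3 genes with the total count and with the percent of counts in the 10 highest IDs, r over all 9 lambs ran from 0.06 to 0.61, and none passed after adjustment (2-sided exact permutation tests over 9 lambs, lowest adjusted p = 0.635 for r and 0.306 for rho). The strongest was CST9L with the total count in gossypol lambs, at r = 0.61 and rho = 0.75 (exact permutation test, p = 0.0665 and 0.0255 unadjusted), with r = 0.66 without the 2 lambs farthest from the median total. In control lambs, leaving out the 2 farthest lambs raised r with the total count from 0.45 to 0.66 for KIAA1210, from 0.31 to 0.64 for PRND and from 0.49 to 0.62 for CST9L. It also turned the sign of r with the percent in the 10 highest IDs, from 0.14 to -0.44 for KIAA1210, from 0.13 to -0.41 for PRND and from 0.22 to -0.54 for CST9L. The relations of CST9L in gossypol lambs were not measured without H01 and H48, its 2 highest lambs there. With 9 lambs such relations are measured imprecisely, and their part in the covariation was not tested.

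Omission of single lambs gave log2 fold changes from -4.16 (without H12) to -3.37 (without H22) for KIAA1210, from -2.88 (without H48) to -2.15 (without H20) for PRND and from -3.75 (without H01) to -2.67 (without H22) for CST9L. Without H01 and H41 together, the values were -3.58 for KIAA1210, -2.52 for PRND and -3.72 for CST9L.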

How the data were processed

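Testis RNA of 18 lambs was sequenced as poly-A libraries. Per the submitters' processing notes and the study's methods, the authors trimmed reads with Trim Galore 0.4.4, aligned them to Oar_v3.1 with TopHat2 2.1.1, merged Cufflinks 2.2.1 transcript models with the annotation and deposited raw counts per gene from HTSeq. Reads mapping to several places were allowed in alignment. Of 29589 IDs, 6831 are assembled loci without an Ensembl ID.

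The counts were fitted by edgeR 4.0.16 under R 4.3.3 (TMM, filterByExpr with a minimum count of 10 and total of 15, quasi-likelihood test, Benjamini-Hochberg adjustment over 18640 IDs). Log2 CPM used a prior count of 2. Correlations and exact permutation tests over all 362880 pairings of 9 lambs were computed in Python 3.11.15, and the p-values between the 3 genes are not given because the genes were chosen on these lambs. Between the 3 genes, lambs of a diet whose largest gap exceeded 0.5 of the range were taken as separate sets. This rule was not applied to the labelled genes, of which LRRC8B exceeded it in control lambs (0.533). Alternatives were other normalizations and filters, edgeR's exact and likelihood ratio tests, DESeq2 1.42.0, limma-voom (limma 3.58.1), linear CPM and leaving out lambs. Omitting H01 with H41, or H01 with H48 for the labelled genes, was chosen after seeing the data. The model fits were tested on simulated data, in which all IDs had the same dispersion and lambs of a diet formed no sets. The simulation thus does not cover the spread of the 3 genes or settle the disagreement between tests.

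The genes and lists were chosen with earlier results of these data known. Named genes are the 3 genes, the 16 labelled genes and, for each gene, the 3 IDs with the highest diet-centred r, of which at most 2 IDs are printed. None of the IDs matched the RefSeq table, so lists of cell-type markers and gene families and a motif search were not run. Each lamb is a separate animal. Labels give no batch.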

Additional observations from a re-analysis of the deposited data

Results flagged for a closer look

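In control lamb H44 the 10 highest IDs held 4.62% of the counts, set apart from the other 8 control lambs, the nearest of which had 6.71%. The gap was 0.499 of the range, just above the 95% critical value of Dixon's test for 9 samples. This was found in 1 of 14 groups of values examined. H44 was also the lowest control lamb in KIAA1210, PRND and CST9L, and the part of this library measure in those values was not tested.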

How the results depend on the processing

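The log2 fold changes were smallest in limma-voom, at -2.79 for KIAA1210, -2.04 for PRND and -2.48 for CST9L. Counts of called IDs depended on the test. At an FDR of 1% they were 82 in edgeR's exact test, 90 in its likelihood ratio test and 123 in DESeq2, against 0. At an FDR of 10% they were 1733, 1851 and 2154 in the same tests, 0 in limma-voom and 523 without H01 and H41, against 332. Leaving out each lamb in turn gave 0 to 3591 IDs at 10% (3591 without H44, 2963 without H48) and 0 at 1%. The cause was not tested.

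On linear CPM, r in control lambs was 0.692 for KIAA1210 and PRND and 0.643 for PRND and CST9L, and r of KIAA1210 and PRND in gossypol lambs was 0.689. In gossypol lambs it was 0.171 for KIAA1210 and CST9L, against 0.374 on log2 CPM, and 0.468 for PRND and CST9L, against 0.558. Without the 2 lambs farthest from the median, r of KIAA1210 and PRND in gossypol lambs was 0.677 and that of PRND and CST9L was 0.114. With each lamb left out in turn, r in control lambs was 0.934 to 0.973 for KIAA1210 and PRND, 0.967 to 0.986 for KIAA1210 and CST9L and 0.903 to 0.949 for PRND and CST9L. In gossypol lambs it was 0.673 to 0.854, 0.115 to 0.682 and 0.320 to 0.750 for the same pairs. No paired analysis was possible because lambs of the 2 diets share no number. Low counts limit PRND most, with 15 counts in H25 (95% Poisson interval 0.453 to 1.34 CPM).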
